A study of Mus musculus with 44 samples.

Results

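The AsiSI break at Dnmt3b is 1 of the 1109 AsiSI motifs of the mouse genome. Its junctions were taken from all 32 HTGTS junction tables of the series as prey on chromosome 2 within 500 bp of position 153649707 (mm10), the base after which AsiSI cuts the top strand. The site held 2000 junctions in the 26 libraries from AsiSI-MEFs and another 15 in the 6 libraries with a Cas9-induced bait. It was selected on its many junctions in the 6 DMSO libraries of the CK-666 experiment. Its level and the change of its share with CK-666 are therefore given as descriptions. Tests were made of its share under the other treatments and of the structure of its joins.

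HTGTS sequences outward from 1 chosen break end, called the bait, and maps the sequence joined to it, called the prey. AsiSI-MEFs are mouse embryonic fibroblasts (C57BL/6, genotype labelled WT) with a doxycycline-inducible AsiSI restriction enzyme that enters the nucleus on 4-hydroxytamoxifen (4OHT). All 26 libraries came from cells given 3 µg/ml doxycycline for 24 h with 1 µg/ml 4OHT for the last 6 h. The 8 groups were 100 µM CK-666 and DMSO (6 libraries each), 10 µM NU7441, with 1 h of pretreatment, and DMSO (3 each), 3 µM wiskostatin and DMSO (2 each), and a plasmid for actin R62D or an empty vector given 24 h before induction (2 each). CK-666 inhibits the ARP2/3 complex, which nucleates branched actin, and wiskostatin inhibits N-WASP, its activator. Actin R62D is a mutant that does not polymerize, and NU7441 inhibits DNA-PKcs, a kinase of nonhomologous end joining (NHEJ). The Cas9 groups were WT MEFs cut at the bait locus by Cas9 and lysed 48 h after transfection, with CK-666 or DMSO (3 each). Their labels also name 4OHT. The study calls the libraries biological replicates, while the labels do not say what separates them, so p-values measure the spread between these libraries, which may be in part technical. Over 10 kb from the bait the AsiSI-MEF libraries held between 335 and 17479 junctions, and the Cas9 libraries between 2376 and 4731. Libraries of a pair shared 1 of 6 sequencing runs. CK-666 replicate 2, the smallest library, stood apart from its group, and results that rest on it are given with and without it.

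Dnmt3b encodes a de novo DNA methyltransferase that sets new CpG methylation in early development. AsiSI cuts an 8-base palindrome and leaves 2-base 3′ overhangs, and methylation of the CpGs in the motif blocks it, so the enzyme cuts mainly at unmethylated CpG-rich promoters. NHEJ joins ends with few or no shared bases, while other pathways chew back the ends and join them at short stretches of shared sequence (microhomology). AsiSI ends that are ligated as cut restore the motif.

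The motif at Dnmt3b lies at chr2:153649703-153649710, in the 5′ untranslated part of exon 1 of Dnmt3b (ENSMUSG00000027478, plus strand). The nearest annotated transcription start is 90 bp away, exon 1 ends 33 bp to the right of the cut, and the first coding base lies 11724 bp to the right of the cut. Of the 12 annotated Dnmt3b transcripts, 10 have an exon over the cut, and the same base falls in the transcribed span of the antisense gene Dnmt3bos. The bait motif lies 140.378 Mb away on the same chromosome at chr2:13271317-13271324, within Rsu1, also in a part that is transcribed but not translated. The reference sequences (GRCm38, plus strand, 5′ to 3′) are shown because the ends of both motifs decide what can be shared at a join. Capitals mark the motif.
Dnmt3b, chr2:153649692-153649721: ggacccgcggcGCGATCGCggcgccgcgct
Rsu1 bait, chr2:13271306-13271335: accctgtcccaGCGATCGCgcaggcgcaca
The GC content was 74% over the 100 bp to the left of the Dnmt3b motif and 72% to the right.

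The bait reads kept the left-hand end of the bait break and ran along the plus strand. Prey on the plus strand that starts within the Dnmt3b motif or to the right of it is therefore counted as the right-hand end of this break. Starts inside the motif are included since shared bases and overhangs are counted to the prey. If bait and prey lay on the same chromosome copy, that join would delete what lies between them. Prey on the minus strand that starts within the motif or to the left of it is counted as the left-hand end, which corresponds to an inversion on the same copy. These layouts follow from the strands, and which copies were joined was not measured.

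Junctions at Dnmt3b lay close to the cut. Of the 2000 junctions, 913 lay within 10 bp of the cut, 608 at 11 to 50 bp, 451 at 51 to 200 bp and 28 beyond 200 bp. The outermost 100 bp of the window held 12 junctions, and the next 100 bp outside it held 2. The 2000 junctions used 246 combinations of position and strand, of which 104 were seen 1 time, and the 10 most used held 846 junctions (42.3%). The leading position was the first base of the right-hand end, with 155 junctions in all 26 libraries, 77 of them blunt. The next was the left edge of the motif, on the plus strand, with 143 junctions in all 26 libraries and 9 shared bases in 71 of them.

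Joins that restored the motif were found on both ends. With at least 8 bases shared and the prey starting at the edge of the motif, 113 junctions had the right-hand end and 50 the left-hand end, 163 in all or 8.15% of the junctions. The share averaged 10.3% ± 5.20 (SD, n = 25 libraries with at least 10 junctions) and ranged from 3.74% to 23.5%. The most frequent reads of 4 kinds of join are printed here because they carry the joined ends that the counts describe. Each has the last 15 bases before the prey in lower case and the first 15 bases of the prey in capitals, 5′ to 3′ along the read.
Motif restored, right-hand end, read 88 times in 26 libraries: acacaccctgtcccaGCGATCGCGGCGCCG
Motif restored, left-hand end, read 44 times in 26 libraries: acacaccctgtcccaGCGATCGCGCCGCGG
Blunt join to the right-hand end, read 23 times in 20 libraries: caccctgtcccagcgCGCGGCGCCGCGCTA
Insert of 14 bases before minus-strand prey 62 bp to the right, read 27 times in 22 libraries: ggcgccgcgctacagCCAGCCCACGAGGGG
In the first 2 reads the motif follows the bait directly, and in the first it runs on into the right flank of the Dnmt3b site. In the left-hand join, the bases after the motif are the reverse complement of the left flank. The fourth read shows 14 inserted bases and the base before them in lower case, and the inserted bases match the Dnmt3b plus strand just right of the motif. Its bait part ended 4 bp to the right of the bait cut, past the motif, so the motif also stands before this insert. Joins with an insert are not among the 163.

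**Figure D1:**
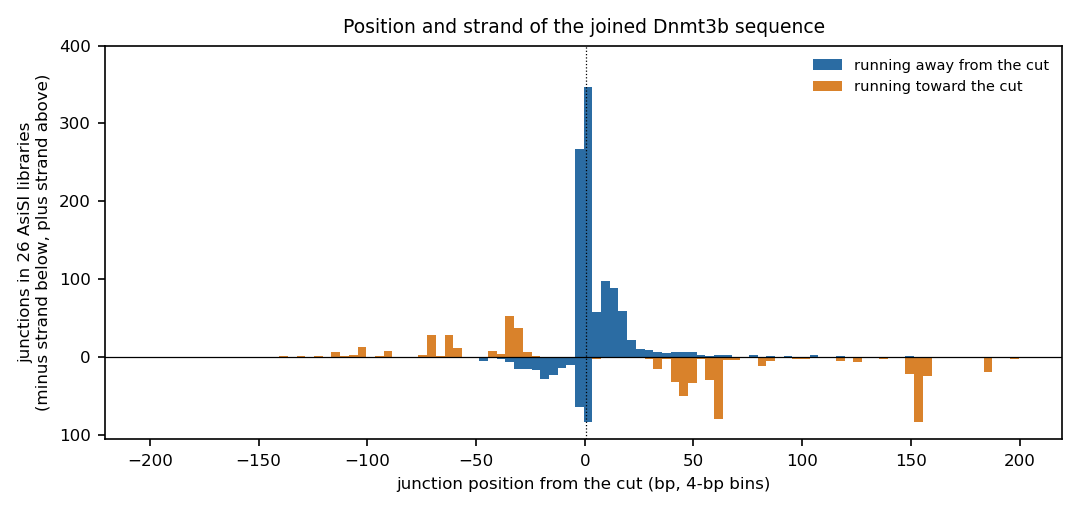
Number of junctions in the 26 AsiSI-MEF libraries by distance of the prey's first base from the cut (bp, 4-bp bins, left to right along the plus strand), with plus-strand prey above 0 and minus-strand prey below. Blue bars are prey that ran away from the cut (1317 junctions) and orange bars prey that ran toward it (683); the highest bars are plus-strand prey at the cut.

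The Dnmt3b break was joined more often through its right-hand end. Prey was on the plus strand in 1225 junctions and on the minus strand in 775. Over the 25 libraries with at least 10 junctions, 63.7% ± 9.04 (SD, n = 25) of prey was on the plus strand, against 50% for no preference (permutation test by 100000 sign flips over libraries, 2-sided p = 1e-05, the smallest these can give). The share was above 50% in all 25 libraries, from 50.5% to 89.3% with a median of 62.5%. It was 50.5% and 51.4% in both libraries of run 2 (wiskostatin replicate 2 and its DMSO control), so there was little preference there. With each position and strand counted 1 time per library the mean was 54.9% (permutation test, p = 0.0077). These sign flips, and all later ones over libraries, treat libraries as independent. Libraries of a pair shared a run, so the p-values of these tests may be too small.

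A split made after the values were seen separated prey that ran away from the cut, as an end of this break would, from prey that started to one side and ran toward the cut. The first class held 1317 junctions, or 65.85% of all, with a library mean of 66.3% ± 11.4 (SD, n = 25). Among them 1012 were the right-hand end and 305 the left-hand end. The right-hand share was 79.1% ± 9.41 (SD, n = 25), between 53.8% and 95.7% by library, and above 50% in all 25 (sign-flip permutation test, 2-sided p = 1e-05). In run 2 it was 78.8% with wiskostatin and 80.8% with DMSO, and the lowest value came from the 15 junctions of NU7441 replicate 1.

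End loss was counted from the top-strand cut for both ends, although the ends carry 2-base 3′ overhangs. A right-hand end without its overhang therefore counts as whole, and a left-hand end without it as 2 bp lost. So counted, the right-hand end lost a median of 0 bp (quartiles 0 and 10, n = 1012 junctions) and was whole in 53.2% of its joins. The left-hand end lost a median of 7 bp (quartiles 0 and 22, n = 305) and was whole in 27.5%. The first share includes 155 joins at the first base right of the cut and 116 at the cut position, which lack overhang bases. Shares of whole ends can thus not be compared between the ends, while the medians lie further apart than 2 bp. These are pooled junctions, which share libraries, and no test was made. Of right-hand joins 32.4% were blunt, 45.2% had 1 to 5 shared bases, 14.2% had 6 or more and 8.20% had an insertion. For the left-hand end these shares were 23.6%, 46.6%, 21.6% and 8.20%. On the bait side, the leading last bases were 2 bp to the left of the cut position (287 junctions), and 4 and 5 bp to the right of it (271 and 200), where bases shared with the prey were counted to both.

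Prey that ran toward the cut formed 683 junctions, 470 on the minus strand from the right side and 213 on the plus strand from the left. In only 47 of the 683 did the prey alignment span the whole motif. The others ended before its far edge, either within the motif or short of it. These joins were clustered. The largest groups started 152 bp to the right on the minus strand (80 junctions in 18 libraries), 62 bp to the right on the minus strand (71 in 25 libraries), 33 bp to the left on the plus strand (40 in 23) and 45 bp to the right on the minus strand (33 in 22). They also carried most of the insertions. An insertion was present in 331 of these 683 junctions (48.5%) and in 108 of the 1317 that ran away from the cut (8.20%). Inserts of at least 10 bases numbered 189 and 8 in these classes. The pipeline reports inserts of up to 30 bases only.

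Most long inserts matched the flank of the same break in the opposite orientation. Of 197 inserts of at least 10 bases (median 16 bases), 154 (78.2%) matched the reference without mismatch within 1 kb of the cut, 153 of them on the strand opposite to the prey. None matched within 1 kb of the bait. In 135 of the 153 the first inserted base lay within 10 bp of the cut. The most frequent insert, 14 bases from 5 to 18 bp to the right of the cut on the plus strand, was followed by minus-strand prey 62 bp to the right in 31 junctions of 24 libraries. The next, 20 bases from 7 to 26 bp to the left on the minus strand, was followed by plus-strand prey 63 bp to the left in 14 junctions of 13 libraries. Opposite-strand inserts made up 7.65% ± 2.81 (SD, n = 25) of a library's junctions, between 0% and 12.5%.

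**Figure D2:**
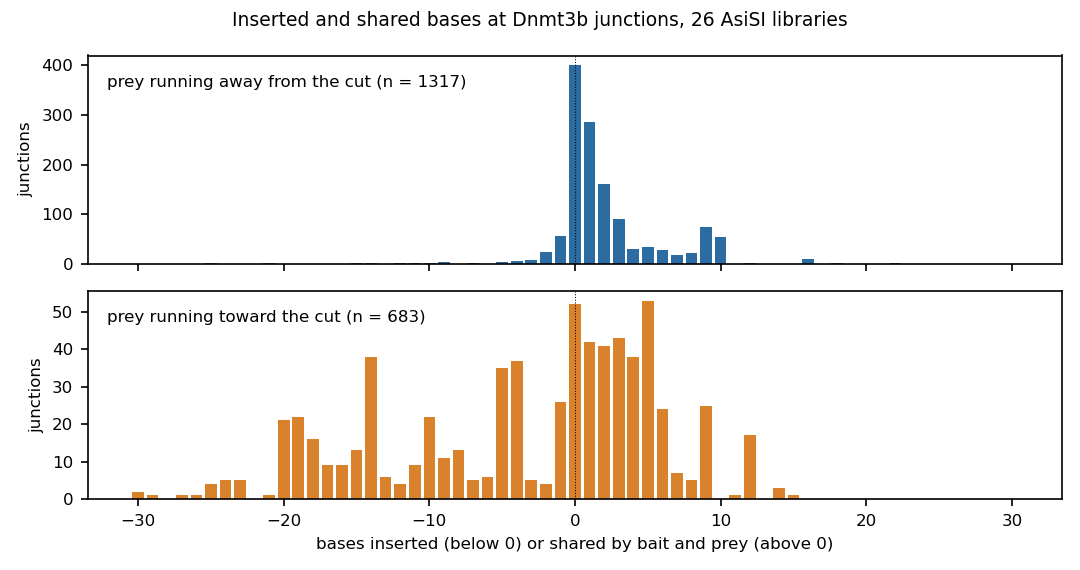
Number of Dnmt3b junctions in the 26 AsiSI-MEF libraries by inserted bases (below 0) or bases shared by bait and prey (above 0), for prey that ran away from the cut (top, n = 1317) and toward it (bottom, n = 683). The top panel has its peak at 0 and a smaller one at 9 and 10 shared bases, where the motif is restored. Inserts form 331 of the 683 junctions in the bottom panel.

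Over all joins at Dnmt3b, 22.0% ± 4.02 (SD, n = 25) were blunt, 40.4% ± 5.63 had 1 to 5 shared bases, 17.4% ± 6.50 had 6 or more and 20.2% ± 5.96 had an insertion. Of the 293 joins with 6 or more shared bases in the summed libraries, 163 restored the motif. The median end loss per library was taken over prey that ran away from the cut, counted from the top-strand cut as above. With shared bases counted to the prey it was 1.30 bp ± 2.62 (SD, n = 25) with a range of 0 to 10 bp. Without NU7441 replicate 3 and its control it was 0.630 bp. It was 4.06 bp with shared bases counted to the bait and 6.58 bp with each position and strand counted 1 time. Values of 3 bp or more came only from run 1, where the 6 libraries averaged 4.50 bp ± 3.94, against 0.312 bp ± 0.594 over the 8 libraries of run 5. Run 1 also held the 4 largest libraries, and the part of depth or run in the end loss was not tested.

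Dnmt3b was then set against the AsiSI sites of Romo1 and Samhd1, 142.873 and 143.864 Mb from the bait and neighbouring sites with many junctions. Romo1 encodes a small mitochondrial membrane protein and Samhd1 a dNTP hydrolase. In 24 libraries with at least 10 junctions at each pair of sites, the plus-strand share at Dnmt3b was 20.3 percentage points ± 9.41 (SD, n = 24) above that at Romo1 and higher in all 24 libraries. It was 17.5 points ± 11.1 above that at Samhd1, and higher in 23 of 24. Both differences passed (sign-flip permutation test over libraries, 2-sided, adjusted p = 6.0e-05 over 12 tests). With each position and strand counted 1 time per library they were 6.42 and 7.30 points (adjusted p = 0.031 and 0.022, permutation test). Libraries averaged 63.7% plus-strand prey at Dnmt3b, 41.9% ± 5.08 (n = 25) at Romo1 and 45.2% ± 8.90 (n = 24) at Samhd1.

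Among prey that ran away from the cut the contrast was wider. The right-hand end made up 79.1% at Dnmt3b, 34.3% ± 6.89 (SD, n = 25) at Romo1 and 36.0% ± 10.4 (n = 24) at Samhd1. The difference was 43.8 points ± 12.5 from Romo1 (24 of 24 libraries) and 42.4 points ± 15.9 from Samhd1 (23 of 24), each with an adjusted p of 2.0e-05 by the same permutation test over 4 tests chosen after the data were seen. With each position and strand counted 1 time these were 25.6 and 31.8 points. Prey running away from the cut was 15.1 points ± 11.8 less frequent at Dnmt3b than at Samhd1, lower in 22 of 24 libraries (adjusted p = 4.0e-05, permutation test). Against Romo1 that difference was -0.65 points ± 9.52 (adjusted p = 0.74, permutation test).

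**Figure D3:**
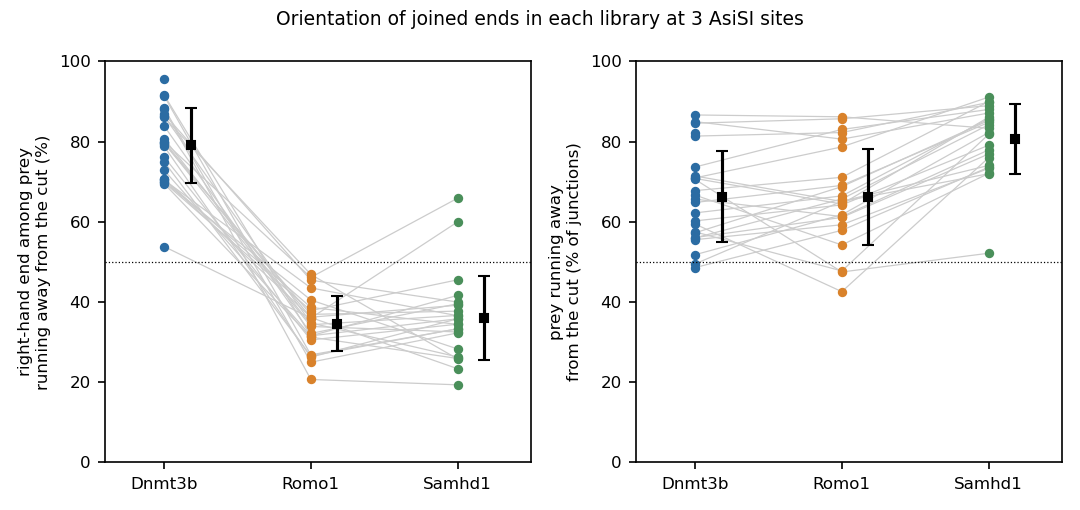
Each AsiSI-MEF library (points, joined by grey lines) at the Dnmt3b, Romo1 and Samhd1 sites, with the share of right-hand ends among prey running away from the cut (left, percent) and the share of all junctions whose prey ran away from it (right, percent). Squares and bars are means and SD over libraries with at least 10 junctions and the dotted line marks 50%; all 25 Dnmt3b points on the left lie above it.

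For the other measures no difference from these sites passed the test. Blunt joins differed by -0.14 points ± 5.21 from Romo1 and -2.81 ± 7.18 from Samhd1 (SD, n = 24), and joins with 1 to 5 shared bases by -2.16 ± 6.81 and 2.10 ± 8.79. Joins with 6 or more shared bases differed by -0.082 ± 4.55 and -1.52 ± 5.47, and joins with insertions by 2.38 ± 7.15 and 2.23 ± 7.71. The adjusted p of these 8 differences lay between 0.17 and 0.93 (permutation test). The median end loss differed by -0.896 bp ± 1.95 from Romo1 and -0.604 bp ± 1.35 from Samhd1, with adjusted p of 0.13 and 0.14 (permutation test). Without the 6 libraries of run 1, an alternative chosen after seeing the data, these differences were -1.39 and -1 bp with adjusted p of 0.00018 and 0.0036 by the same test. Leaving out NU7441 replicate 3 with its control was enough to pass the threshold (-1.36 and -0.886 bp, adjusted p = 8.0e-05 and 0.0028, permutation test). The count gives right-hand ends up to 2 bp less loss, and these ends were more frequent at Dnmt3b (79.1%) than at Romo1 (34.3%) or Samhd1 (36.0%). Differences in end loss between the sites can therefore not be told apart from the way of counting.

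Opposite-strand inserts were also found at the other sites. At Romo1, 209 of 279 inserts of at least 10 bases matched the flank on the strand opposite to the prey, and at Samhd1 73 of 100. Their first base lay within 10 bp of the cut in 204 and 22 of these. Among the 176 AsiSI sites with at least 100 junctions that ran away from the cut, Dnmt3b ranked 13 by the share of right-hand ends (76.8% over summed libraries, against a median of 51.5% and quartiles of 40.9% and 61.0%). Among the 25 such sites on chromosome 2 it ranked 2, after Fnbp1 with 80.5%.

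**Figure D4:**
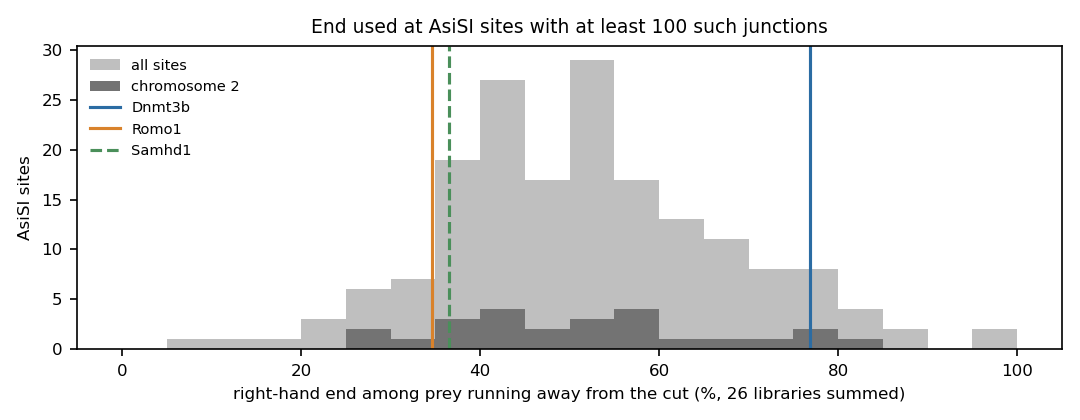
Number of AsiSI sites (of 176 on all chromosomes, light grey, and 25 on chromosome 2, dark grey) by the share of right-hand ends among prey running away from the cut (percent, 26 libraries summed, 5-point bins). Vertical lines mark Dnmt3b at 76.8%, in the upper tail, and Romo1 and Samhd1 on the low side.

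Dnmt3b took 2.19% ± 1.48 (SD, n = 26) of a library's junctions, or 1.95% ± 0.789 (n = 25) without CK-666 replicate 2, a library that stood apart. By its mean share it ranked 2 of the 1108 AsiSI motifs other than the bait, between Romo1 (2.82% ± 0.890, n = 26) and Nup214 (1.97%). Without that library it ranked 3, behind Nup214, and by summed junctions of all 26 libraries it ranked 5. These levels are the basis on which the site was chosen. Of the 1108 motifs, 377 had any junction.

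The DMSO libraries of the CK-666 experiment gave 3.27%, 2.89%, 1.56%, 1.86%, 1.38% and 2.02% for replicates 1 to 6, with a mean of 2.16% ± 0.752 (SD, n = 6). With CK-666 the values were 2.48%, 8.36%, 1.36%, 1.74%, 1.72% and 2.13%, with a mean of 2.96% ± 2.67 (n = 6). The ranges overlap, and replicate 2 is far above the rest. It is the smallest library, with 28 of 335 junctions (95% Wilson interval 5.85% to 11.8%, which covers counting error only). The mean log2 ratio of CK-666 to DMSO was 0.21 ± 0.70 (SD, n = 6 pairs), with 3 pairs higher and 3 lower. Without replicate 2 it was -0.057. Since the DMSO libraries chose the site, no test was made.

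With NU7441 the shares were 0.778%, 0.692% and 1.26% (15, 9 and 80 junctions), with a mean of 0.910% ± 0.306 (SD, n = 3). Their DMSO controls gave 1.36%, 1.76% and 1.41% (62, 43 and 247 junctions), with a mean of 1.51% ± 0.219 (n = 3). Every NU7441 library was below every control, and each was below its own. The log2 ratio was -0.74 (SE 0.30, 95% interval -1.35 to -0.12), and it did not pass the threshold of an adjusted p under 0.05 (limma over 259 AsiSI sites, unadjusted p = 0.020, adjusted p = 0.20). In that comparison 12 of 259 sites were called (4.63%), 9 of them lower (3.47%). The sites of Romo1 and Samhd1 were among these 9, Romo1 only just under the threshold. Their log2 ratios were further below 0 than that of Dnmt3b, so the lower share was not particular to Dnmt3b. Differences between the 3 sites in this change were not tested. Without replicate 2 the log2 ratio at Dnmt3b was -0.46, and without replicate 3 it was -1.03 (limma, adjusted p = 0.45 and 0.082). With each position and strand counted 1 time it was -0.30 (limma, adjusted p = 0.74).

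Wiskostatin libraries gave 1.58% and 2.13%, and their DMSO controls 1.43% and 2.22%. The log2 ratio was 0.043 (SE 0.37, 95% interval -0.71 to 0.79, limma adjusted p = 0.99). Actin R62D libraries gave 2.70% and 3.05%, and the empty vector 1.78% and 4.11%, with a log2 ratio of 0.083 (SE 0.37, 95% interval -0.67 to 0.84, limma adjusted p = 0.99). In both experiments 1 pair was higher and 1 lower, and the shares overlapped. Limma called 0 of 259 sites (0%) in either comparison, with 9 sites for wiskostatin and 12 for actin R62D at an unadjusted p under 0.05 (21 and 15 with voom weights, which also called 0). Intervals this wide leave changes of over 1.5-fold in either direction undetected at this number of libraries.

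In order of group mean the share went from NU7441 (0.910%) through its DMSO control (1.51%), the wiskostatin control (1.82%), wiskostatin (1.85%), the CK-666 control (2.16%), actin R62D (2.87%) and the empty vector (2.95%) to CK-666 (2.96%). The last place of CK-666 rests on replicate 2. Without it the group mean was 1.89%, below its control. Apart from NU7441 and its control, neighbours in this order differed by less than the larger SD of the pair.

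**Figure D5:**
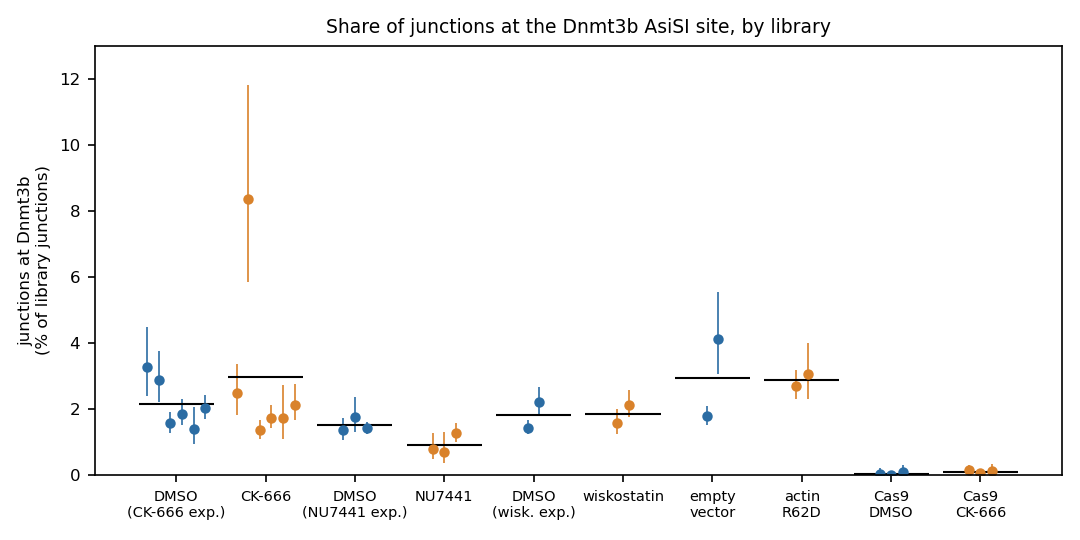
Share of a library's junctions (over 10 kb from the bait) that lay at the Dnmt3b AsiSI site, in percent, for the 32 libraries by group; blue points are controls, orange points treated, vertical bars 95% Wilson intervals and black lines group means. CK-666 replicate 2 stands alone at 8.36%, the NU7441 libraries lie below their controls, and the Cas9 libraries lie at or under 0.148%.

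In the Cas9 libraries, the background for a break that AsiSI makes, the site held 1, 0 and 2 junctions with DMSO and 7, 2 and 3 with CK-666. These are 0.0394%, 0% and 0.0842%, and 0.148%, 0.0492% and 0.118%, against 0.692% or more in every AsiSI-MEF library. The count of 0 (of 3154 junctions) allows a share of up to 0.0951% by a limit of 3 counts, or 0.122% by the upper Wilson bound that the plot of shares draws. All 15 junctions had the same position, strand, bait end and number of shared bases as a junction in an AsiSI-MEF library of another run, and 13 of 15 as one in the 2 AsiSI-MEF libraries sequenced in their own run, which held 212 Dnmt3b junctions. Where these 15 junctions came from was not tested.

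No measure of the structure of Dnmt3b joins passed the test with CK-666. In 6 pairs the plus-strand share averaged 64.1% ± 9.69 (SD, n = 6) in the controls and 67.5% ± 11.4 under CK-666, a difference of 3.39 points ± 10.7 (exact sign-flip test, adjusted p = 0.80). Without replicate 2, in which 25 of 28 junctions were plus-strand, the difference was -0.084 points. Blunt joins changed by 3.83 points ± 5.93, joins with 1 to 5 shared bases by -3.02 ± 8.83, joins with 6 or more by -0.17 ± 6.72, joins with insertions by -0.64 ± 8.01 and the median end loss by -0.42 bp ± 0.66 (n = 6). The adjusted p of these lay between 0.80 and 0.97 (exact sign-flip test, 6 measures), where 6 pairs can reach 0.031 before adjustment. The median end loss was 0 bp in all 6 CK-666 libraries and 0 to 1.5 bp with DMSO.

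For NU7441 only replicates 1 and 3 had at least 10 junctions in both libraries, and with so few pairs the sign-flip test cannot go below 0.5, so it was not used. Joins with 6 or more shared bases were 17.7% with DMSO and 26.7% with NU7441 in replicate 1, and 6.48% and 11.2% in replicate 3, a mean difference of 6.85 points. This class includes joins that restored the motif, which went from 6.45% to 20% in replicate 1 and from 4.45% to 6.25% in replicate 3. Their rise was larger than that of the whole class in replicate 1 and smaller in replicate 3. A change in the other joins of this class was not tested. Insertions went from 19.4% to 13.3% and from 19.4% to 18.8%. Plus-strand prey went from 64.5% to 53.3% in replicate 1 and from 61.1% to 63.8% in replicate 3. The NU7441 library of replicate 1 held 15 junctions, so 1 junction is worth over 6 points there.

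With wiskostatin 65.7% and 50.5% of prey was on the plus strand, against 61.4% and 51.4% in the controls. With actin R62D it was 57.8% and 77.6%, against 60.8% and 63.4% with the empty vector. The right-hand end made up 79.5% and 78.8% of prey running away from the cut with wiskostatin and 80.0% and 91.4% with actin R62D, so it led in every library of both treatments.

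Across the 26 AsiSI-MEF libraries, the sites whose log2 share was most like that of Dnmt3b, of 197 others with at least 100 junctions, were those nearest to the starts of Enah (chromosome 1, r = 0.78), Cdk12 (chromosome 11, r = 0.76) and Homer3 (chromosome 8, r = 0.76). The median r over the 197 sites was 0.31. These are descriptions over points that share a library total and depth. Without CK-666 replicate 2 the first 2 fell to r = 0.62 and 0.67, Homer3 had r = 0.79, and Romo1 came first with r = 0.84.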

How the data were processed

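The authors sonicated genomic DNA, amplified it from the bait, sequenced it on an Illumina MiSeq, aligned the reads by BWA (build mm10) and applied the HTGTS pipeline with its default filters. Each deposited table holds 1 library with 1 line per junction and is not normalized. The bait-only counts by which the study normalizes were not used, so values here are shares, and changes in total joining cannot be seen. PCR copies with different ends stay in. Counts were made of junctions on chromosomes 1 to 19, X and Y over 10 kb from the bait, each assigned to its nearest motif. Treated and control libraries were paired by replicate number, because the study's source tables scale each treated value to the control of the same replicate, although its methods name no paired test. Shares at sites with at least 30 junctions were fitted with limma 3.58.1 (R 4.3.3) on log2((junctions + 0.5)/(total + 1) × 1000) with pair and treatment terms, lmFit, eBayes with a trend, and Benjamini-Hochberg adjustment over 259 sites. On simulated NU7441 data it called 7% of sites changed by 1 and 45% of those changed by 2 on the log2 scale. These rates average over all 259 sites, with a fixed spread and no pair effects, so they do not give the power at Dnmt3b. Structure was tested by sign flips over libraries, taken as independent although those of a pair shared a run, or over pairs for CK-666. Alternatives were other windows, denominators, thresholds and left-out libraries. The site, the comparison sites and the tests were chosen with earlier results of these data known. Besides Dnmt3b, Rsu1, Romo1 and Samhd1, genes were named by the highest Pearson r, and Nup214 and Fnbp1 after their values were seen. The 12 Hi-C samples were not analysed here.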

Additional observations from a re-analysis of the deposited data

Results flagged for a closer look

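The Dnmt3b share of CK-666 replicate 2 (8.36%) stood far above the other 5 libraries of its group, the nearest at 2.48%, with a gap of 0.839 of the group's range. Its 28 junctions had 14 combinations of position and strand, and 27 of position, strand, bait end and shared bases. The share of joins with 6 or more shared bases in CK-666 replicate 5 (35.3%, of 17 junctions) also stood apart, the nearest library being at 22.0%, with a gap of 0.631 of the range. The limit used is passed by chance in about 1 in 20 groups of this size, which the second gap is close to and the first well beyond. That rate is for a single group of values with equal spread. Libraries differed in size and different measures were looked at, so it is not a test of either value.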

How the results depend on the processing

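The right-hand preference at Dnmt3b and its excess over Romo1 and Samhd1 kept their direction and passed under every alternative run. The NU7441 log2 ratio of the share stayed below 0 and did not pass under any, with values from -1.03 to -0.46 when 1 replicate was left out. Sites called in that comparison were 12 in the fit reported, 27 with voom weights, 21 with junctions near motifs as denominator, 6 with a window of 200 bp or a pseudocount of 1, 7 with all deposited junctions as denominator, 4 with each position counted 1 time, 3 in a fit of that experiment alone, 5 without replicate 1, and 2 with no replicate block or without replicate 2. With the replicate block left out, the log2 ratio was -0.74 (limma, adjusted p = 0.35), and no other call changed. Deviations of paired libraries over 198 sites had a correlation of -0.018 to 0.18 for CK-666, 0.069 to 0.28 for NU7441, 0.29 for wiskostatin and 0.22 for actin R62D, so these data do not bear out the CK-666 and NU7441 pairs in every case.

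Near 0, several values changed sign. Junctions near motifs as denominator gave log2 ratios of -0.018 for actin R62D and -0.070 for wiskostatin, and leaving out 1 replicate gave -0.44 to 0.60 and -0.060 to 0.15. For CK-666, within run 4 the change was 0.24 points for 1 to 5 shared bases and 0.23 for insertions, which was 0.21 with at least 20 junctions. Joins with 6 or more shared bases changed by 5.18 with each position counted 1 time and 2.98 within run 5. Without 1 replicate CK-666 differences were -0.084 to 5.79 for plus-strand prey, -2.26 to 1.16 for 6 or more shared bases and -2.23 to 1.64 for insertions. For NU7441, counting each position 1 time gave -4.75 bp for end loss and -8.10 points for 1 to 5 shared bases.

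Against Romo1, blunt joins differed by 0.13 points with at least 20 junctions and 1.23 with at least 5, prey running away from the cut by 1.01 with at least 5, and joins with 6 or more shared bases by 1.15 counted from 8 bases and 0.098 without run 1. Counting each position 1 time gave -5.91 for 1 to 5 shared bases and 3.84 for 6 or more against Romo1, and -5.21 for blunt joins against Samhd1, which then passed (permutation test, adjusted p = 0.039, 0.031 and 0.042), and 0.74 for 6 or more against Samhd1. End loss against Samhd1 was 0.021 bp with shared bases counted to the bait, and without run 1 end loss differed by -1.39 bp from Romo1 and -1 bp from Samhd1. Leaving out 1 pair gave -1.36 to -0.80 bp and -0.89 to -0.48 bp for these, and against Romo1 -0.60 to 0.60 points for blunt joins, -2.05 to 0.42 for prey running away from the cut and -0.67 to 0.37 for 6 or more shared bases. At Dnmt3b itself the median end loss was 6.58 bp and blunt joins 17.1% with each position counted 1 time, and the end loss was 4.06 bp with shared bases counted to the bait. The causes of these changes were not tested. All differences in end loss between sites carry the limit of the count given above. Libraries of 15 to 40 junctions limit every percentage of structure.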

Other observations

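The far ends of the reads were also repeated. Of the 1012 joins of the right-hand Dnmt3b end, 105 (10.4%) had a prey alignment that ended at the same base, 28 bp to the right of the cut, and another 93 (9.19%) ended 59 bp to the right. In CK-666 replicate 2, the library with the high share, 12 of 28 junctions ended at the first of these bases.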
